A study of Mus musculus with 10 samples.

Results

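The genes described here are those whose transcripts were found mainly in 1 of the 8 mpkCCD cell lines of the study. They were selected on measured values. The 2 samples of each intact clone were averaged, and a gene was kept where its highest line had at least 2 TPM (an abundance scaled by gene length and to a common total per sample) and held over 50% of the TPM summed over the 8 lines. This rule kept 412 of the 55414 genes in the table, or 3.19% of the 12904 genes that reached 2 TPM in any line. The mitochondrially encoded genes, the gasdermins and Slc39a8 were left out beforehand, which removed 1 gene that would otherwise have passed. Because line-against-line values chose these genes, their levels are given as a description and without a test.

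mpkCCD is an immortalized line of mouse cortical collecting duct cells on a C57BL/6 background that responds to vasopressin, and all lines were kept on membrane filters for 7 days with 0.1 nM dDAVP, a vasopressin analog acting on the V2 receptor. The 5 Camk2d-intact samples were the parental line (1 sample) and intact clones 1 and 2 (2 samples each), which went through the same Cas9 transfection and single-cell sorting but kept Camk2d unmutated. The 5 Camk2d-KO samples were 1 sample each of clones KO 1 to KO 5, made with either of 2 guides against exons of the kinase domain. Each clone descends from a single sorted cell, so a difference between 2 clones may be a difference between their founders. The edited gene, the guide and the founder cannot be told apart within 1 clone.

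Cells within an established line are not identical, and a clone grown from a single cell carries forward the expression state and the chromosomes of that cell. Clones of one line can therefore differ in which genes they express. The genes concerned are of several kinds. Protein-coding messages carry poly(A) tails, whereas most small RNAs do not: small nucleolar RNAs (snoRNAs), which guide modification of ribosomal RNA and are mostly processed from introns of host genes, small Cajal body RNAs (scaRNAs), spliceosomal small nuclear RNAs (snRNAs) and the hairpins from which microRNAs are cut. In bulk RNA, fewer cells with a transcript and less transcript per cell cannot be told apart.

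The labels were first checked on the edited gene and on cell type markers. Camk2d was at 123 to 141 TPM (median 134) in the intact samples and at 19.8 to 29.8 TPM (median 25.2) in the KO clones, with no overlap. Aqp2, the vasopressin-regulated water channel that defines collecting duct principal cells, ranged from 3773 to 5502 TPM among the intact samples, and the KO clones spanned 1281 to 3789. Marker lists of endothelium, of fibroblasts, of neurons, and of the loop and distal tubule summed to less than 1 TPM in each line. Between 19344 and 20052 genes per sample were above 0. TPM do not retain sequencing depth, so the error of counting is unknown and a gene without signal is described as listed at 0.

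KO 2 had the most genes of its own at this threshold, whereas at a share over 75% intact clone 1 had the most (38). The rule placed 78 genes in KO 2, 62 in KO 1, 50 in KO 4, 49 in intact clone 1, 47 in the parental line, 44 in KO 3, 42 in intact clone 2 and 40 in KO 5. The number per line averaged 54.8 ± 15.4 (SD, n = 5) in KO clones and 46 ± 3.61 (SD, n = 3) in intact lines. The difference between these means was 8.8 genes. These counts come from the values that chose the genes, and an intact clone is the mean of 2 samples while the other lines have 1, so they are given without a test. With the first or the second sample alone for each intact clone the difference was 5.8 or 9.27 genes. Without KO 2 the difference was 3.67 genes, and without KO 1 it was 4.5. The genes of a line made up between 0.0343% (intact clone 2) and 0.104% (KO 2) of that line's TPM.

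**Figure D1:**
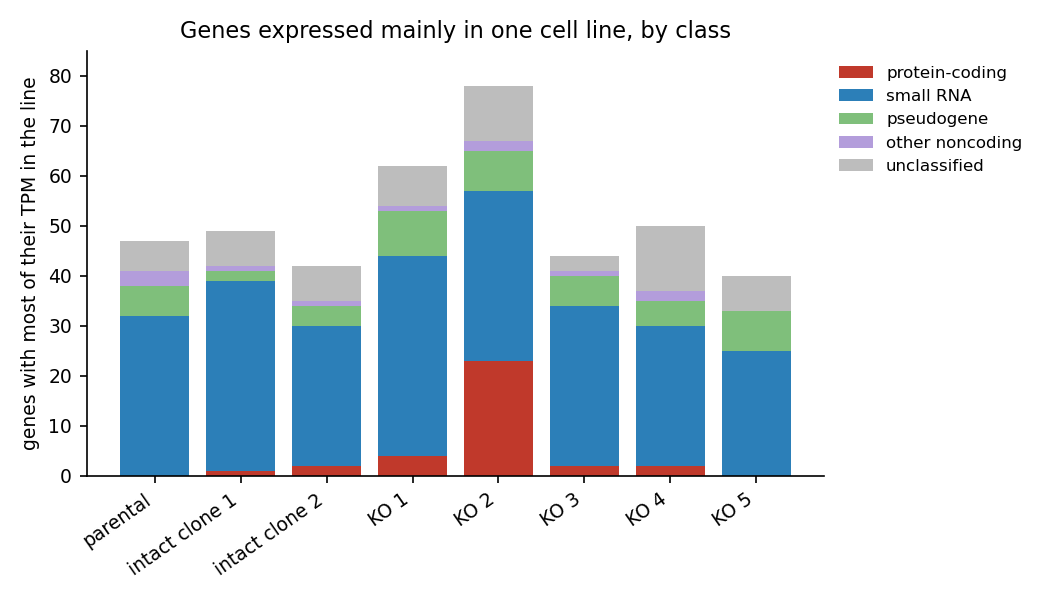
Number of genes with over 50% of their summed TPM in each of the 8 cell lines (bars, stacked by annotation class; 1 count per line, no error). KO 2 holds 78 genes, 23 of them protein-coding, and the small RNA part of the bars ranges from 25 (KO 5) to 40 (KO 1).

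By class, 257 of the 412 genes (62.4%) were small RNA genes, 48 were pseudogenes, 34 were protein-coding, 11 were other noncoding genes, and 62 had identifiers that the annotation used here does not classify. Small RNA genes were a minor class among expressed genes, and most of those that reached 2 TPM in a line were in the list: 257 of 354, or 72.6%. The same share was 57.9% of 107 unclassified genes, 8.76% of 548 pseudogenes, 1.23% of 894 other noncoding genes and 0.309% of 11001 protein-coding genes. The small RNA genes of the list had a median annotated length of 118 bases and the protein-coding ones of 3161 bases. Of the small RNA genes, 139 (54.1%) were listed at 0 in all 7 other lines and 0 were above 0 in every line, against 1 and 16 of the 34 protein-coding genes. Altogether 192 of the 412 genes (46.6%) were above 0 in a single sample of the 10.

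The number of small RNA genes per line, again without a test, was 31.8 ± 5.76 (SD, n = 5) in KO clones and 32.7 ± 5.03 (SD, n = 3) in intact lines. The number of protein-coding genes per line was 6.2 ± 9.5 (SD, n = 5) in KO clones and 1 ± 1 (SD, n = 3) in intact lines. The protein-coding counts were 23 in KO 2, 4 in KO 1, 2 each in KO 3, KO 4 and intact clone 2, 1 in intact clone 1, and 0 in KO 5 and the parental line. KO 2 thus held 23 of 34 protein-coding genes, and when it was left out and the rule applied to the other 7 lines the total was 18. At a lower threshold of 30% of the summed TPM, 107 of 166 protein-coding genes were in KO 2 and 24 in KO 1, with 3 to 9 in each other line.

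Between KO and intact samples as groups, limma with Benjamini-Hochberg adjustment called 1 of 20000 genes, or 0.005%, and this was Camk2d. All 412 genes of the list were among those tested and 0 were called, and 8 had an unadjusted p under 0.05 compared with 1398 of all 20000. Selection for a high level in 1 line also gives these genes a wide spread within the group of that line, so the count of 0 is a description of the list.

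The protein-coding genes of KO 2 are shown by sample, and KO 2 was above the other 9 samples for each. Their TPM in KO 2 ranged from 2.11 to 269 (median 4.68), and the ratio to the next-highest line ranged from 2.4 to 29.1 (median 6.2). The next-highest line was the parental line for 8 genes, intact clone 2 for 6, KO 1 for 4, KO 3 and KO 5 for 2 each and KO 4 for 1. Of the 23 genes, 12 were above 0 in every other line, and 11 were listed at 0 in at least 1. The clone thus held genes that were above 0 in every line and genes listed at 0 in some other lines. Each of the 23 genes was above 0 in at least 1 other line.

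**Figure D2:**
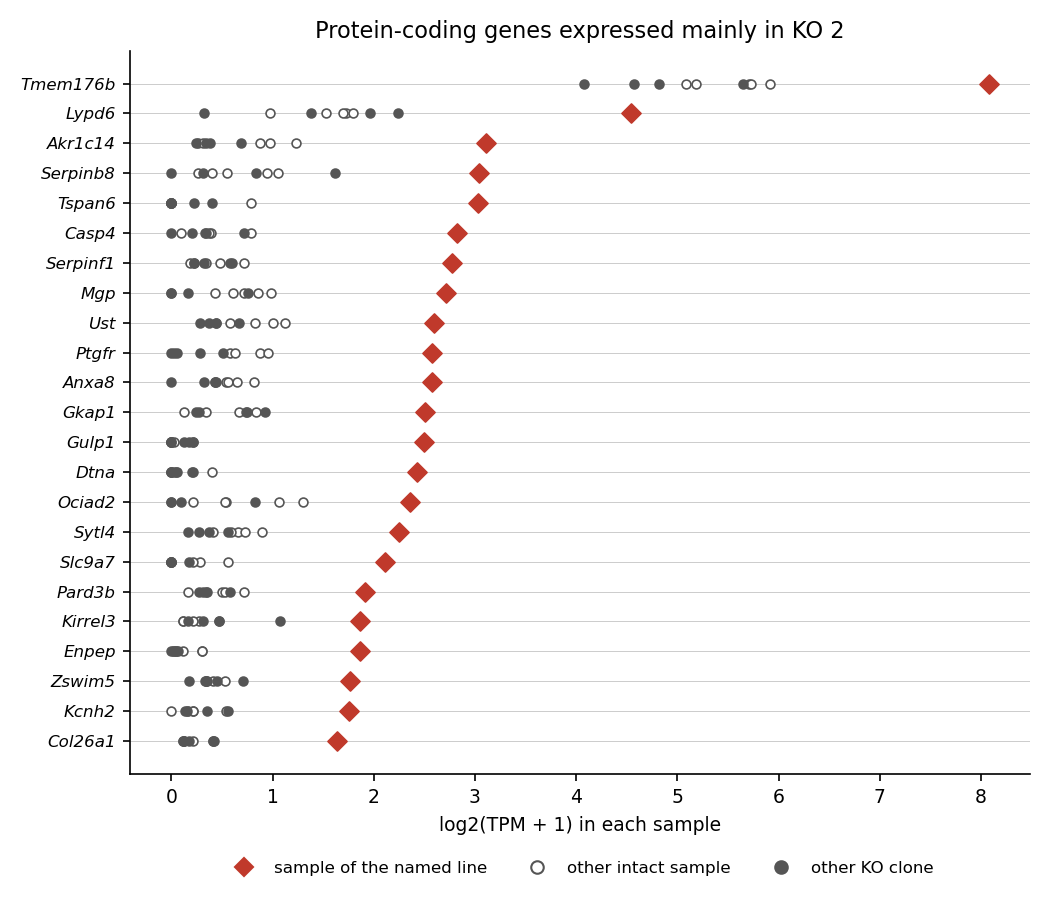
The 23 protein-coding genes expressed mainly in KO 2. Each point is 1 sample on the log2(TPM + 1) axis: KO 2 (red diamonds), the 5 intact samples (open circles) and the other 4 KO clones (filled circles). Tmem176b is expressed in all samples and highest in KO 2, whereas Gulp1, Tspan6, Dtna, Enpep and Slc9a7 lie close to 0 outside KO 2.

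Among membrane and surface proteins, Tmem176b, a tetraspan protein of intracellular membranes, was at 269 TPM in KO 2. It was at 59.2 TPM in the parental line, 33.1 and 35.3 in intact clone 1, 51.2 and 51.9 in intact clone 2, 22.8 in KO 1, 27.3 in KO 3, 15.9 in KO 4 and 49 in KO 5. Every sample thus expressed the gene, and KO 2 was 4.55 times the next line. Its neighbour on chromosome 6, Tmem176a, did not meet the rule but was also highest in KO 2, at 77.5 TPM against 6.64 to 26.7 in the other samples.

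Lypd6, a GPI-anchored protein of the Ly6 family that modulates nicotinic receptors and Wnt signaling, was at 22.2 TPM in KO 2. The parental line had 2.31 TPM, intact clone 1 had 0.97 and 2.47, intact clone 2 had 1.88 and 2.23, and KO 1, KO 3, KO 4 and KO 5 had 0.25, 2.91, 1.6 and 3.71. The related Lypd6b, 118 kb away on chromosome 2, was just outside the threshold with 49.2% of its TPM in KO 2. It was at 30.2 TPM there, at 15 in the parental line and 8.9 in KO 1, and between 0.57 and 3.6 in the remaining samples. The pair therefore shared KO 2 as the highest line and differed in the lines that followed.

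Tspan6, a tetraspanin, and Sytl4, a Rab27 effector of secretory granules also called granuphilin, lie 38 kb apart on the X chromosome and were the only pair of protein-coding genes of the list within 500 kb of each other. Tspan6 was at 7.17 TPM in KO 2, at 0.72 in the parental line, 0.32 in KO 1 and 0.17 in KO 4, and listed at 0 in the other 6 samples. Sytl4 was at 3.77 TPM in KO 2 and between 0.12 and 0.86 TPM in each other sample. Srpx2 and 4930570D08Rik, in the same span, were listed at 0 in every line. Both neighbours were highest in KO 2, which held 23 of the 34 protein-coding genes of the list. Of 45 pairs of list genes of any class within 500 kb, 4 (8.89%) shared a line, compared with 13.3% of all pairs placed.

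Gulp1, an adaptor protein of the engulfment of apoptotic cells, had the highest ratio to the next line (29.1), with 4.65 TPM in KO 2 and 0.16 or less in every other sample. Dtna, the dystrophin-associated protein dystrobrevin alpha, was at 4.37 TPM in KO 2 and at most 0.32 elsewhere. Enpep, the aminopeptidase that cleaves angiotensin II and is prominent in proximal tubule, was at 2.63 TPM in KO 2 and at most 0.23 elsewhere. The 8 proximal tubule markers, which do not include Enpep, summed to 6.53 TPM in KO 2 and 8.12 to 15.1 TPM in the other lines. KO 2 held 89.4% of the summed TPM of Gulp1, 87.6% of Dtna, 85.8% of Enpep, 85.6% of Tspan6 and 80.7% of Slc9a7, the 5 highest shares among its protein-coding genes.

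Transport was represented by Slc9a7, a sodium and proton exchanger of the trans-Golgi network, and Kcnh2, the potassium channel also known as hERG. Slc9a7 was at 3.31 TPM in KO 2, 0.47 in the parental line and listed at 0 in intact clone 1, KO 3, KO 4 and KO 5. Kcnh2 was at 2.37 TPM in KO 2 and from 0 to 0.47 TPM in the other samples. With Abcb1a of KO 1, Slc9a7 was among 2 list genes of 193 expressed solute carriers and ABC transporters (1.04%). Kcnh2 was 1 of 37 expressed ion channel genes (2.7%). The share over all expressed protein-coding genes was 0.309%.

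Secreted and matrix proteins included Serpinf1, the antiangiogenic factor PEDF, at 5.83 TPM in KO 2 against 0.14 to 0.64 in the other samples. Mgp, matrix Gla protein, an inhibitor of calcification, was at 5.55 TPM against 0 to 0.98. Col26a1, a collagen, was at 2.11 TPM against 0.08 to 0.34. It was the single gene of the list among 24 expressed collagens and matrix proteins (4.17%, compared with 0.309% of expressed protein-coding genes). Ust, a sulfotransferase acting on dermatan and chondroitin sulfate chains, was at 5.06 TPM against 0.22 to 1.18. Of these 4 genes, Ust reached the highest value outside KO 2, in sample 2 of intact clone 2.

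Signaling and enzymes included Ptgfr, the prostaglandin F receptor, at 4.97 TPM in KO 2 against 0 to 0.94 in the other samples, and Akr1c14, a hydroxysteroid dehydrogenase, at 7.61 against 0.18 to 1.35. Ptgds, a prostaglandin D synthase, was just outside the threshold with 49% of its TPM in KO 2, at 61.7 TPM against 3.87 to 14.4. Casp4, the inflammatory caspase that responds to intracellular lipopolysaccharide, was at 6.06 TPM against 0 to 0.72. Serpinb8, an intracellular protease inhibitor, was at 7.23 TPM with 2.07 in KO 1 as the next value. Rnf43, a ubiquitin ligase that lowers Wnt receptors, was also just outside, at 7.43 TPM in KO 2 against 0.3 to 1.72.

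The remaining KO 2 genes were Anxa8, an annexin (4.96 TPM), Gkap1, a G kinase anchoring protein (4.68 TPM), Ociad2 (4.13 TPM), the polarity protein Pard3b (2.77 TPM), the immunoglobulin-family adhesion protein Kirrel3 (2.64 TPM) and Zswim5 (2.41 TPM). Zswim5, with 50.6% of the sum, and Tmem176b, with 50.9%, were the protein-coding genes closest to the threshold from inside. Ociad2 was at 1.46 TPM in the parental line and Kirrel3 at 1.1 TPM in KO 1, which were the lowest ratios to the next line in KO 2 (2.83 and 2.4).

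For the genes of KO 2, which were high together in 1 clone, windows from 250 bases before to 50 bases after the annotated start were read from RefSeq (GRCm38.p6), and 18 of 23 had one. The 4 shown are those of Lypd6, of Gulp1 with the highest ratio, and of the neighbours Tspan6 and Sytl4, with CG dinucleotides in capitals, since these mark the difference between the 2 common promoter types and are the sites of DNA methylation. DNA methylation was not measured in these samples. Each is written 5′ to 3′ on the strand of its gene.
Lypd6 (chr2:50066179-50066478, + strand, 31 CG): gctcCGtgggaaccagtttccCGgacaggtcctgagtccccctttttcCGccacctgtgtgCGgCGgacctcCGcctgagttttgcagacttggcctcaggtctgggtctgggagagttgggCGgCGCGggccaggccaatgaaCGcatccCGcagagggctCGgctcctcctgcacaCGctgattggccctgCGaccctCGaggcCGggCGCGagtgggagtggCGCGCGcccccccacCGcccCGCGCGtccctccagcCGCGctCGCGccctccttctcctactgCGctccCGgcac
Gulp1 (chr1:44551421-44551720, + strand, 15 CG): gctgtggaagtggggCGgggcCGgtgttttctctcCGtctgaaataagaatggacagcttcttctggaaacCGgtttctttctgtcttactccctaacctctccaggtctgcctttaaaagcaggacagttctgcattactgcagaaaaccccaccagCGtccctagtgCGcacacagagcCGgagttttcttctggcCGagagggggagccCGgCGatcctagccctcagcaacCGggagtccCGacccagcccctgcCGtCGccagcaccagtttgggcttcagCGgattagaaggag
Tspan6 (chrX:133898380-133898679, - strand, 9 CG): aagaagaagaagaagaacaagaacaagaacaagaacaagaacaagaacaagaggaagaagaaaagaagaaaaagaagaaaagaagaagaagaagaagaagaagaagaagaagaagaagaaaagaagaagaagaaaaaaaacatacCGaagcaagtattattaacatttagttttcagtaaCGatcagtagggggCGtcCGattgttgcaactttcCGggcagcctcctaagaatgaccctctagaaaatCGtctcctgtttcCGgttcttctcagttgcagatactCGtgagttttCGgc
Sytl4 (chrX:133981763-133982062, - strand, 7 CG): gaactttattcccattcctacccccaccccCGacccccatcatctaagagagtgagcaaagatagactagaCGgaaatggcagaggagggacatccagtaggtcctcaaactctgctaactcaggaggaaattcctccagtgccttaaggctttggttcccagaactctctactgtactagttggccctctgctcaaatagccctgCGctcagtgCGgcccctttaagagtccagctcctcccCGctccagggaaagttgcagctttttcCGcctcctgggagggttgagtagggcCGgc

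These windows ranged widely. The KO 2 genes had a median of 10 CG dinucleotides per 300 bases (from 2 in Akr1c14 to 52 in Zswim5, taking the window with the most where a gene had several). The median was 23 among 8832 protein-coding genes with at least 2 TPM, 15 among 16757 protein-coding genes of the table and 8 among all 26998 genes with a window. At least 10 CG were present in 9 of 18 KO 2 genes (50%). This share was 89.7% of protein-coding genes with at least 2 TPM, 61.1% of those in the table and 45.8% of all windows. The motif TATAAA, searched on both strands, was present in 2 of 18 (Enpep and Ociad2), or 11.1%, against 8% of the protein-coding genes with at least 2 TPM and 15.7% of all windows. GGGCGG was present in 7 of 18 (38.9%), against 71.5% and 38.2% of the same sets. TGAGTCA was present in 1 (Serpinb8), or 5.56%, against 4.36% and 5.94%, and the cyclic AMP response element TGACGTCA in 0, against 3.78% and 2.03%. None of the 4 motifs was present in all 18 genes.

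The 23 genes lay on 13 chromosomes. In KO 2, whole chromosomes stood apart from the other lines when 10365 genes with a mean of at least 5 TPM outside the list were compared with the median of the other lines on the log2(TPM + 1) scale. The median difference was 0.46 on chromosome 9, where 94% of 584 genes were higher in KO 2. It was 0.34 on chromosome 5 (93.2% of 694 genes higher) and -0.34 on chromosome 3 (8.3% of 518 genes higher). In KO 1, chromosome 8 had a median of -0.35 and chromosome 19 of 0.22. Of 160 medians over 20 chromosomes and 8 lines, 5 were 0.2 or more from 0 and these were the 5 named, while intact clone 1 was at -0.14 on chromosome 5 and the parental line at -0.11 on chromosome 14. Chromosome copy number was not measured.

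**Figure D3:**
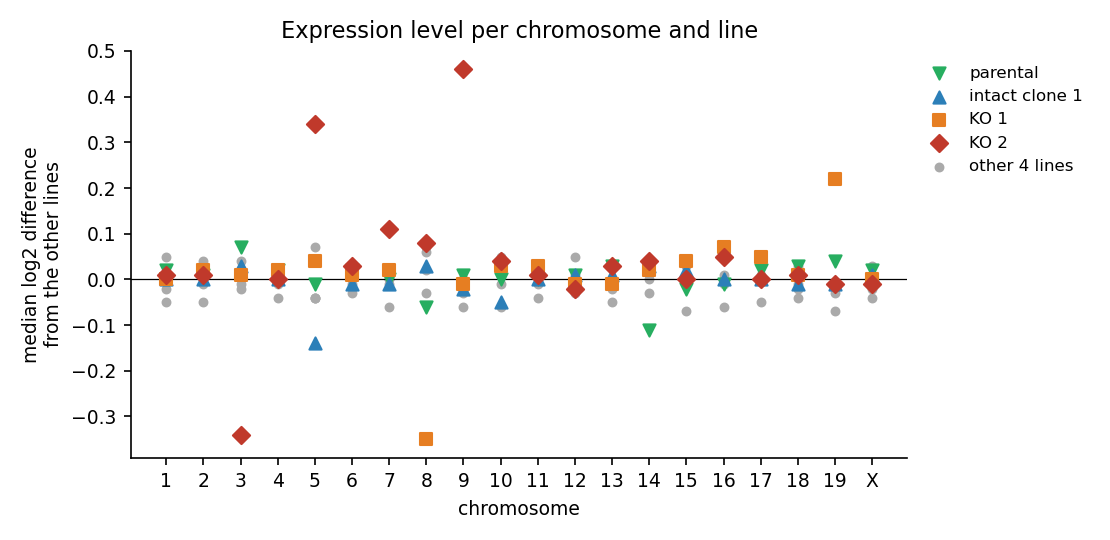
Median log2(TPM + 1) difference of each line from the median of the other lines, per chromosome, over 10365 genes outside the list (1 point per chromosome and line). KO 2 lies at 0.46, 0.34 and -0.34 on chromosomes 9, 5 and 3, KO 1 at -0.35 and 0.22 on chromosomes 8 and 19, and the other points lie within 0.14 of 0.

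Chromosomes 5 and 9 together held 5 of the 23 KO 2 genes (21.7%), namely Ociad2, Kcnh2 and Col26a1 on chromosome 5 and Casp4 and Kirrel3 on chromosome 9, compared with 12.2% of 10989 expressed protein-coding genes. Chromosome 3, which was lower in KO 2, held 2 of the 23 (Ptgfr and Enpep), or 8.7% compared with 4.85%. The other 16 lay on chromosomes with medians between -0.01 and 0.04 in KO 2. The part of these shifts in the genes of KO 2 was not tested. The 4 protein-coding genes of KO 1 included 0 on chromosome 8 and 0 on chromosome 19.

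KO 2 also differed from the other lines in several cell type markers, which were not part of the list. Fxyd4, a principal cell regulator of the sodium pump, was at 194 TPM in KO 2 and 588 to 849 in the other lines, and the vasopressin receptor gene Avpr2 was at 114 against 192 to 264. Hsd11b2, the enzyme that inactivates glucocorticoids in principal cells, was at 115 TPM against 11.5 to 43.1. Gata3, a transcription factor of the collecting duct, was at 256 TPM in KO 2 and within 246 to 280 elsewhere. Over the 11 principal cell markers the summed TPM were 2462 in KO 2, 2602 in KO 1 and 4242 to 7066 in the other lines, most of it Aqp2. The 8 urothelial and stratified epithelial markers summed to 199 TPM in KO 2 and 439 to 564 elsewhere, nearly all from Upk1a, with Krt5, Krt13 and Krt14 at 0.19 TPM or less in each line. The 7 blood cell markers summed to 9.45 TPM in KO 2 and 3.68 to 5.76 elsewhere, of which Cd68, a lysosomal protein, was 9.05, while Ptprc was at 0.33 and Lyz2, Cd3e and C1qa were listed at 0. The part of these shifts in the genes of KO 2 was not tested.

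The other clones had few protein-coding genes of their own. In KO 1 they included Rassf9, Abcb1a and Capsl. Abcb1a, which encodes the drug efflux pump P-glycoprotein, was at 4.82 TPM in KO 1 and within 0.39 to 0.69 TPM in all 9 other samples, so that it was expressed in every line at a similar low level except KO 1. Rassf9, a Ras-association domain protein, was at 5.93 TPM in KO 1, 1.87 in the parental line and 0.16 to 0.98 in the rest. Capsl was at 3.05 TPM, and the parental line was next with 0.76 TPM.

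In KO 4, Pof1b, an actin-binding protein of epithelial junctions, was at 18 TPM, compared with 3 TPM in KO 5, 2.09 and 2.46 in intact clone 2 and 0.33 to 1.49 in the other 6 samples. The predicted gene Gm10337, 165 bases long, was at 6.56 TPM in KO 4 and listed at 0 elsewhere. In KO 3, Syndig1, a synapse protein, was at 2.36 TPM against at most 0.75, and Pet117, a cytochrome c oxidase assembly factor, at 2.86 TPM. Pet117 was also at 2.16 TPM in sample 2 of intact clone 2 and listed at 0 in its sample 1, so the pair of samples did not give the same level. KO 5 and the parental line had no protein-coding gene of their own at this threshold.

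Among the intact lines, Aqp4, the basolateral water channel of principal cells, was at 7 and 8.54 TPM in the samples of intact clone 1. It was at 3.31 TPM in the parental line, 1.77 in KO 5 and 1.02 in KO 2, and at 0.07 to 0.18 TPM in intact clone 2, KO 1, KO 3 and KO 4. Aqp4 was the single gene of the list among the 9 principal cell markers that reached 2 TPM (11.1%, compared with 0.309% of expressed protein-coding genes).

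Fggy, a carbohydrate kinase, was at 4.45 and 4.31 TPM in the samples of intact clone 2, at 0.89 TPM in the parental line and listed at 0 in the other 7 samples. Intact clone 2 also held a second entry named Ddit3, a gene model of 105 exonic bases lying inside the main Ddit3 gene on the same strand, at 30.5 and 22.2 TPM, with 15.3 TPM in KO 4, 1.07 in the parental line and 0 elsewhere. The main Ddit3 entry, the stress-induced transcription factor CHOP, was at 73.1 to 113 TPM in all samples. Since the 2 models overlap, how reads were divided between them is uncertain.

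**Figure D4:**
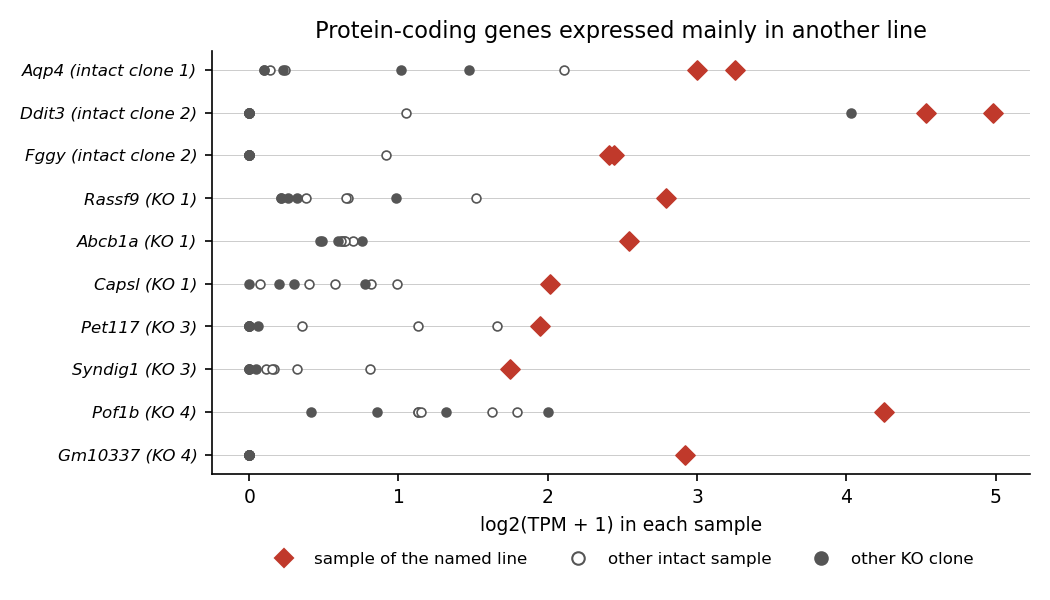
Protein-coding genes expressed mainly in a line other than KO 2, up to 3 with the highest TPM per line (10 of 11), with the line in brackets. Each point is 1 sample on the log2(TPM + 1) axis: the named line (red diamonds, 2 for an intact clone), other intact samples (open circles) and other KO clones (filled circles). Abcb1a has a narrow range outside KO 1, whereas the parental line is the next-highest line for 6 of the other genes.

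Where a protein-coding gene of one clone was expressed at all in another line, the parental line was often next. It was the next-highest line for 15 of 33 protein-coding genes (45.5%), compared with 14.7% of 10193 protein-coding genes with at least 2 TPM. Intact clone 2 was next for 6 of the 31 protein-coding genes of other lines (19.4% against 10%), KO 1 for 4 of 29 (13.8% against 17.3%) and KO 5 for 4 of 33 (12.1% against 11.1%). KO 3 was next for 2 of 31, KO 4 for 2 of 32, intact clone 1 for 0 of 32 and KO 2 for 0 of 10. This was computed from the same values that selected the genes and is a description.

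The 2 samples of each intact clone allowed the selection to be repeated in a sample that it had not used. Genes were picked with 1 sample of each clone, and the other sample was then put in its place. The samples of the parental line and the KO clones stayed the same, so only the values of the intact clones were new. Over both clones and both directions, 19 of 189 picks (10.1%) kept over 50% of the sum, and 148 (78.3%) were listed at 0 in the other sample. A gene can be picked in both directions, and of 172 distinct genes picked, 10 repeated in at least 1 direction. The repeats were 4 of 49 and 3 of 47 for intact clone 1 and 6 of 50 and 6 of 43 for intact clone 2. By class, 6 of 7 protein-coding picks repeated (Aqp4, Fggy and the second Ddit3 entry in both directions, and not the predicted gene Gm21060, at 2.15 and 0 TPM). By contrast, 13 of 126 small RNA picks (10.3%), and 0 of 22 pseudogene, 0 of 10 other noncoding and 0 of 24 unclassified picks, repeated. Whether the paired samples were separate cultures is not stated in the sources used here, and the parental line and the KO clones have a single sample each, so their genes could not be looked up in this way.

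**Figure D5:**
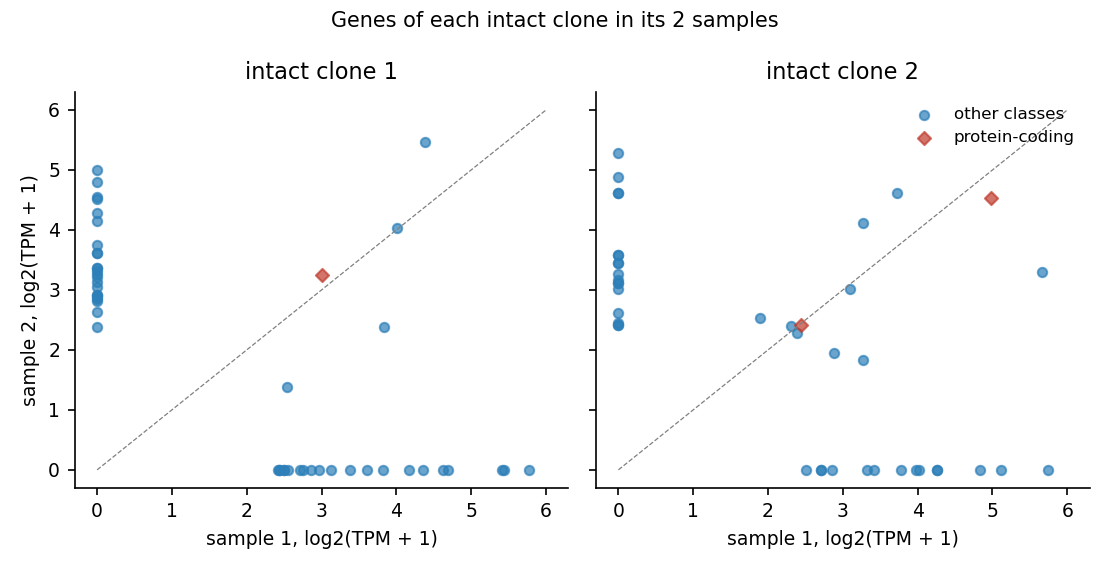
The 49 genes of intact clone 1 (left) and the 42 genes of intact clone 2 (right) in the 2 samples of the clone, as log2(TPM + 1), with the line of equal values dashed. Red diamonds are protein-coding genes and blue circles are other classes. Of the 91 genes, 75 lie on an axis, at 0 in 1 of the samples, and the 3 protein-coding genes lie near the diagonal.

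Among microRNA genes, 51 of the 412 genes, 2 repeated in both directions in intact clone 1 and were listed at 0 in the other 8 samples. Mir29c was at 19.8 and 43.2 TPM in its samples, and Mir16-2 at 15.2 and 15.3 TPM. Another one, Mir6357, was at 49.8 and 8.87 TPM in intact clone 2, with 4.01 TPM in KO 2 and 0.36 in KO 1. These are reads on the hairpin gene and not a measure of the mature microRNA. The mature products of Mir29c and Mir16-2, from RefSeq (GRCm38.p6), are shown 5′ to 3′ because these genes were above 0 in both samples of their clone and in no other sample, with the seed (bases 2 to 8), the part that pairs with target messages, in capitals.
miR-29c-5p: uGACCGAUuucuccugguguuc
miR-29c-3p: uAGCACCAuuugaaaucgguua
miR-16-5p: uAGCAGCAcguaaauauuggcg
miR-16-2-3p: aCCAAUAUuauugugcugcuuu

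Of the 51 microRNA genes, 47 had mature sequences in RefSeq, 63 in all, and the 63 seeds were all different, so that 0 seeds were shared between 2 genes of the list. The microRNA gene with the highest TPM was Mir762, at 109 TPM in the parental line. Sample 1 of intact clone 1 had 114 TPM of it and sample 2 was listed at 0, so it was placed in the parental line only through the mean of that pair. In KO 3, Mir5625 was at 89.5 TPM, with 16.6 TPM in sample 1 of intact clone 2 and 0 in the remaining samples. Mir686 in KO 1 (49.2 TPM), Mir5136 in the parental line (46.9 TPM) and Mir5134 in KO 2 (36.7 TPM) were listed at 0 in every other sample.

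Among snoRNA and related genes, Snord7 was at 67.4 TPM in KO 1, at 13.5 to 13.9 TPM in KO 2, KO 3 and sample 1 of intact clone 1, and at 0 in the rest. Snord59a lay at the threshold, with 50.2% of its sum in KO 1 (49.7 TPM), 49.3 TPM in KO 2 and 0 in the other samples. The 5S ribosomal RNA gene n-R5s33 was at 6.37 TPM in KO 2 and 6.34 TPM in KO 1. Low values of short genes recurred. Of 136 values of small RNA genes of the list that could be set beside another small RNA gene of the same length in the same sample, 33 (24.3%) were identical to one as deposited, such as 3 genes of 107 bases at 9.23 TPM and 4 genes of 132 bases at 4.51 TPM in KO 1. The number of reads behind these values is not known. In KO 2, Snord19 (38.5 TPM) and Scarna17 (34.3 TPM) were listed at 0 elsewhere. Gm24494, a snoRNA gene, was at 76.7 TPM in KO 4 and 30.2 TPM in KO 2. In KO 5, the vault RNA gene Vaultrc5 was at 19.2 TPM, with 10.8 TPM in sample 1 of intact clone 2. In the parental line, Snord72 was at 33.1 TPM, below the 38.2 TPM of sample 1 of intact clone 2, whose sample 2 was listed at 0.

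Most of these small RNA genes lie within other genes, whose transcripts were compared in the same lines. Of 205 small RNA genes with a position in GENCODE M21, 138 (67.3%) lay inside a gene on the same strand, 49 inside a gene on the other strand only, and 18 between genes. Over these 138 the host had a median of 56.5 TPM in the line concerned, and in 131 it had at least 2 TPM there. The log2(TPM + 1) difference of the host between that line and the median of the others had a median of -0.01, with quartiles of -0.10 and 0.09. There were 138 pairs of a small RNA gene and its host (133 different hosts). In 17 of them the host was highest in that line, which is 1 of the 8 lines compared. In 0 pairs the host was higher by 1 or more on the log2 scale. Atp5b, the host of Snord59a, was at 4308 TPM in KO 1 against a median of 3854 in the others. Psmb5, the host of Mir686, was at 375 TPM in KO 1 against 366, and Smc4, the host of Mir16-2, was at 388 TPM in intact clone 1 against 333. Atp5b and Smc4 were among the 17. Other hosts were lower: AA465934, the host of Snord7, was at 63.5 TPM in KO 1 against 90.4. A330023F24Rik, the host of Mir29c, was at 4.01 TPM in intact clone 1 against 4.33.

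The pseudogenes and other noncoding genes of the list were mostly low. The median TPM in the line concerned was 2.8 for the 48 pseudogenes and 5.46 for the 11 other noncoding genes. Gm21769, a pseudogene, was at 32.3 TPM in KO 1 and 25.4 TPM in KO 5. Gm30571 was at 24.4 TPM in KO 1 and was above 0 in all other samples, at 0.25 to 7.48 TPM. Gm17711 was at 22.8 TPM in KO 2, with 9.1 TPM in KO 1. The antisense gene Gm11266 was at 2.77 TPM in KO 2, which was 5.83 times the next line, and the antisense gene 4930426D05Rik was at 6.52 TPM in KO 2. Reads were not stated to be counted by strand, so an antisense gene and its partner cannot be told apart. The highest unclassified gene, ENSMUSG00002075420, was at 135 TPM in KO 3, 33.6 TPM in sample 1 of intact clone 1, 39.3 TPM in sample 2 of intact clone 2, 11.4 TPM in KO 4 and 4.72 TPM in KO 1.

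Within 1 percentage point of the threshold there were 22 genes inside and 13 outside. Inside, Gm22079 (50% after rounding), n-R5s33, Gm23482 and Gm45508 (50.1% each) were the closest, and outside these were Gm11646 (49.9%), Mir6244 (49.7%) and Gm38213 and Gm24201 (49.6% each). Small RNA genes made up most of both. Protein-coding genes in this band were Tmem176b and Zswim5 inside and Ptgds, Lypd6b and Rnf43 outside, all of them with KO 2 as the highest line.

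The opposite pattern was a gene at or near 0 in a single line. Genes were counted as lost in a line when all 7 other lines had at least 2 TPM and the line had less than 10% of the lowest of these, and 23 genes met this rule. There were 8 in KO 5, 7 in KO 4, 3 in the parental line, 2 each in KO 1 and KO 2, 1 in KO 3 and 0 in either intact clone, which are represented by the mean of 2 samples. The count per line was 4 ± 3.24 (SD, n = 5) in KO clones and 1 ± 1.73 (SD, n = 3) in intact lines, and is given without a test. With the first sample alone for each intact clone, 26 genes were lost, 4 of them in intact clone 2 and 1 in intact clone 1. With the second sample alone there were 17, of which 1 was in intact clone 2 and 0 in intact clone 1. Of the 23, 9 were small RNA genes, 7 protein-coding, 3 pseudogenes, 3 unclassified and 1 of another noncoding type.

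The 7 protein-coding losses were in KO 1, KO 4 and KO 5. AI467606, on chromosome 7, was at 0.34 TPM in KO 4 and between 13.1 and 16.5 TPM in each of the other 9 samples. Zfp141, a zinc finger gene also on chromosome 7, was listed at 0 in KO 4 and was at 3.75 to 7.65 TPM elsewhere, and 5730507C01Rik was at 0.02 TPM in KO 4 and 2.38 to 3.6 elsewhere. In KO 5, Derpc was at 0.23 TPM against 5.74 to 16.4, and Ntpcr, a nucleoside triphosphatase, was at 0.19 TPM against 2.77 to 9.57. Both lie on chromosome 8. KO 4 and KO 5 thus had the most losses, 7 and 8 of all classes, beside 2 and 0 protein-coding genes of their own.

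Tgm2, a transglutaminase that crosslinks matrix proteins, was at 0.23 TPM in KO 5 and 3.44 TPM in KO 3, against 33.2 TPM in the parental line, 31.5 and 30.1 in intact clone 1, 60.5 and 57.5 in intact clone 2, 53.9 in KO 1, 16.4 in KO 2 and 52.8 in KO 4. The KO clones thus covered a wider range than the intact samples, with KO 1 and KO 4 inside the intact range. Gata2, a transcription factor gene, was at 0.15 TPM in KO 1, 10.5 TPM in KO 2 and 1.71 to 6.11 TPM in the other samples, and was 1 lost gene among 69 expressed developmental transcription factors, of which 0 were in the list of 412. In KO 1 the pseudogene Gm10060 was listed at 0, against 32.9 to 89.8 TPM elsewhere.

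Losses of small RNA genes were less even between paired samples. Mir1892 was listed at 0 in KO 5 and at 41.1 to 354 TPM in the other lines, but also at 0 in sample 2 of intact clone 2, with 308 TPM in its sample 1. Mir703, lost in KO 2, was likewise listed at 0 in sample 1 of intact clone 2, and Gm22357, lost in KO 5, in sample 1 of intact clone 1. Mir546, lost in KO 4, was at 11.7 to 87.1 TPM in all 9 other samples. In the parental line the losses were Snora28, a U6 gene and ENSMUSG00002076463, which were at 2.15 to 52.6 TPM, 0 to 38.5 TPM and 0 to 168 TPM in the other samples. In KO 2 and KO 3 the remaining losses were the pseudogene Gm10146 and the small RNA gene Gm24616.

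Gene families were compared with the 0.309% of expressed protein-coding genes that were in the list. The share was 1.04% of solute carriers and ABC transporters, 2.7% of ion channels, 4.17% of collagens and matrix proteins and 11.1% of principal cell markers. Each of these rests on 1 or 2 genes and is no result about a family. Of 13 expressed imprinted genes, 69 developmental transcription factors, 53 cytokine and growth factor genes, 32 G protein-coupled receptors, 30 interferon-response genes, 319 zinc finger genes and 11 keratins and cornified envelope genes, 0 were in the list, and at so low a background this is not a result about these families. The prostaglandin receptor gene Ptgfr was not matched by the receptor list. Germline and Y-linked genes did not reach 2 TPM in any line.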

How the data were processed

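RNA-seq was performed on 10 samples of mpkCCD cells. The authors prepared full-length cDNA with a kit that primes on poly(A) tails, sequenced 50-bp pairs, aligned them with STAR and quantified genes with RSEM. The deposited values are TPM per Ensembl gene, 1 column per sample, each summing to 1000000 within rounding. TPM divide reads by gene length, so a read on a short gene yields more TPM than a read on a long one. Depth is not retained. The authors ran edgeR on expected counts, which were not used here. All sample columns were used (0 unused).

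Samples were grouped by their labels. The 2 samples of an intact clone were averaged to give 8 lines. The members and gene lists were chosen with earlier results of these data known. Counts per line are given without a test, although exact permutation tests were planned, because the selection used the same values and intact clones are means of 2 samples. The most abundant 20000 genes by mean TPM were tested between KO and intact as log2(TPM + 1) with limma 3.58.1 in R 4.3.3 (intensity trend, Benjamini-Hochberg, threshold 0.05), tested first on simulated data. P-values measure the spread between these samples, and the KO clones count as separate lines. The 2 samples of an intact clone were counted separately in this fit, although they are 1 line. With 1 value per cell line, limma also called 1 of 20000 genes. Other steps used Python 3.11.15, pandas 2.3.3, numpy 2.4.6 and matplotlib 3.10.9. Classes, hosts and distances came from GENCODE M21 (GRCm38), which held 298 of the 412 genes. For genes it lacked, RefSeq classes or the file's descriptions were used. The authors used a later annotation. Promoter and microRNA sequences came from RefSeq (GRCm38.p6), matched by symbol.

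Genes were named by a rule: the highest named genes of each line and the highest of other symbols, list members, genes near the threshold, neighbouring pairs and the leading losses. A gene is not reported here. Further genes, among them the markers, Tmem176a, the remaining protein-coding genes of KO 2, the main Ddit3 entry and the small RNA genes, were named after their values were seen. Alternatives were other thresholds of share and TPM, a single sample per intact clone, median-ratio rescaling, omission of small RNA genes, other pseudocounts and filters, and omission of each sample or line. Alternatives by annotation class, and those for the protein-coding and chromosome values, were chosen after seeing the data.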

Additional observations from a re-analysis of the deposited data

Results flagged for a closer look

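Among 29 quantities compared over the 5 KO clones (summed marker TPM and chromosome medians), 9 had a clone whose gap to the nearest other clone exceeded Dixon's 95% critical value of 0.71 of the range, and 6 of these were KO 2. Chance gives about 1 in 20 for each quantity, and quantities of 1 clone are not independent. Urothelial and stratified epithelial markers summed to 199 TPM in KO 2 against 480 to 564, and blood cell markers to 9.45 TPM against 3.68 to 4.89. The median log2 difference in KO 2 was -0.34 on chromosome 3 (others -0.01 to 0.04), 0.34 on chromosome 5 (others -0.04 to 0.04), 0.11 on chromosome 7 (others -0.01 to 0.02) and 0.46 on chromosome 9 (others -0.03 to 0.00). In KO 1 it was -0.35 on chromosome 8 (others 0.02 to 0.08), 0.05 on chromosome 17 (others 0.00 to 0.01) and 0.22 on chromosome 19 (others -0.03 to -0.01). The part of the chromosome shifts in the genes of either clone was not tested.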

How the results depend on the processing

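The 412 genes became 227 at a share over 75%, 244 at 5 TPM and 93 without small RNA and unclassified genes (other settings 316 to 570; leaving out a line 388 to 429). The KO minus intact difference of 8.8 genes per line became -4.2 at a share over 75% and was positive in the other settings, with 3.67 to 13.5 when a line was left out. KO 2 had the most genes in all compared settings that kept it except a share over 75%, where intact clone 1 had 38. The share of picks that repeated was 10.2% at 5 TPM and 11% at a share over 75%. Lost genes numbered 12 at 5 TPM and 20 below 5% of the lowest other line. Genes called between KO and intact samples numbered 2 with a pseudocount of 0.1 and 1 to 2 when a sample was left out (2 without the parental sample or without 1 sample of intact clone 2). Protein-coding genes numbered 74, 20 and 7 at shares over 40%, 60% and 75%, of which KO 2 held 51, 15 and 5. With at least 1 or 5 TPM they numbered 63 and 14, of which KO 2 held 33 and 9. The 160 chromosome medians differed by at most 0.02 when restricted to genes with a mean of at least 20 TPM. No paired analysis was possible because intact and KO clones with the same number are different lines, and the labels give no other number that could pair them. Depth is unknown, which limits the low TPM values of short genes.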
